A study of Mus musculus with 4 samples.

Results

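The genes described here encode the machinery of mitosis: the kinases and cyclins that start it, the kinetochore and spindle that move the chromosomes, the checkpoint that holds anaphase, and the proteins that condense, separate and partition chromosomes. A list of 56 gene symbols was set by function, and it was chosen with earlier results of these data known. The probe sets of a mouse Affymetrix array whose platform annotation carries exactly one of these symbols were taken. Of the 56, 55 were measured among 18193 genes with a single symbol, and Ccnb1 was not analysed here. Each gene is represented by the probe set with the highest mean log2 signal over the 4 arrays.

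The 2 KO arrays and the 2 WT arrays each hold RNA of mouse mammary tissue, from mice labelled STAT5 KO and STAT5 WT, with 2 mice per genotype by the design text. STAT5 is the transcription factor, encoded by Stat5a and Stat5b, that prolactin and growth hormone activate in the mammary gland, and the series' title concerns how luminal progenitors develop. Tissue was taken at 6 days, counted from an event that the text does not name. The labels give no strain, age or allele, and do not say in which cells STAT5 was deleted. The replicate numbers follow the order of deposit and pair no animals.

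In textbook terms, cyclin B with CDK1 drives a cell into mitosis, kinetochores built on centromeric chromatin capture spindle microtubules, and the checkpoint blocks the anaphase-promoting complex until every chromosome is attached. Transcripts of most of these genes accumulate late in the cell cycle and are scarce in resting cells, so their level in a tissue is widely read as a sign of how many cells are cycling. In the mammary gland the epithelium divides most in puberty and early pregnancy, when ducts branch and alveoli form. In RNA of whole tissue, fewer cycling cells and less RNA per cycling cell cannot be told apart.

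As a check of the labels, Stat5a gave signals of 1836 and 861 on KO replicates 1 and 2, against 2307 and 2061 on WT replicates 1 and 2, and Stat5b gave 1069 and 712, against 1522 and 1506. Both were lower on both KO arrays and neither passed the test (limma adjusted p = 0.246 and 0.102), so both genes still gave signal in KO tissue. Across tested probe sets Pearson's r was 0.973 between the KO arrays, 0.977 between the WT arrays and 0.938 to 0.952 between genotypes.

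Mitotic genes were lower in KO mammary tissue. Signals are on the linear MAS5 scale, and differences are KO minus WT on log2(signal + 16). Over the 55 genes the difference ran from -1.78 to 0.20 with a median of -1.23, where the median of all 18193 genes was -0.01. KO tissue held between 26.8% and 113% of the WT mean signal, with a median of 38.6%. The difference was -1 or less for 41 of the 55 genes and for 2.81% of all genes. For 54 of the 55 both KO arrays lay below both WT arrays, an ordering seen for 24.8% of all genes, and the exception was Cdc25b. These genes vary together between animals, so their count says little about the number of independent observations.

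The test was limma across all probe sets whose mean log2 value reached the median of the array, with Benjamini-Hochberg adjustment over those 22519 probe sets and a threshold of 0.05. It covered 52 of the 55 genes. Cdc25c, Cenph and Ndc80 were too dim to be tested. Of the 52, 20 fell, 0 rose and 32 did not pass, so that 38.5% of the tested mitotic genes were called lower, where 1.36% of the 11360 tested genes were called lower and 1.21% higher. The 32 that did not pass include 18 with a difference of -1 or less. At an unadjusted p under 0.05, 47 of the 52 differed, and so did 2418 of the 11360 tested genes. The count depends on single mice, among all genes as well as among mitotic genes. The median mitotic difference was -0.91 without WT replicate 2 and -1.55 without WT replicate 1. It was -1.10 without KO replicate 1 and -1.38 without KO replicate 2. With no filter on dim probe sets, the adjustment ran over 45037 probe sets and 0 mitotic genes passed (50 at an unadjusted p under 0.05), while 27 of all genes did.

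**Figure D1:**
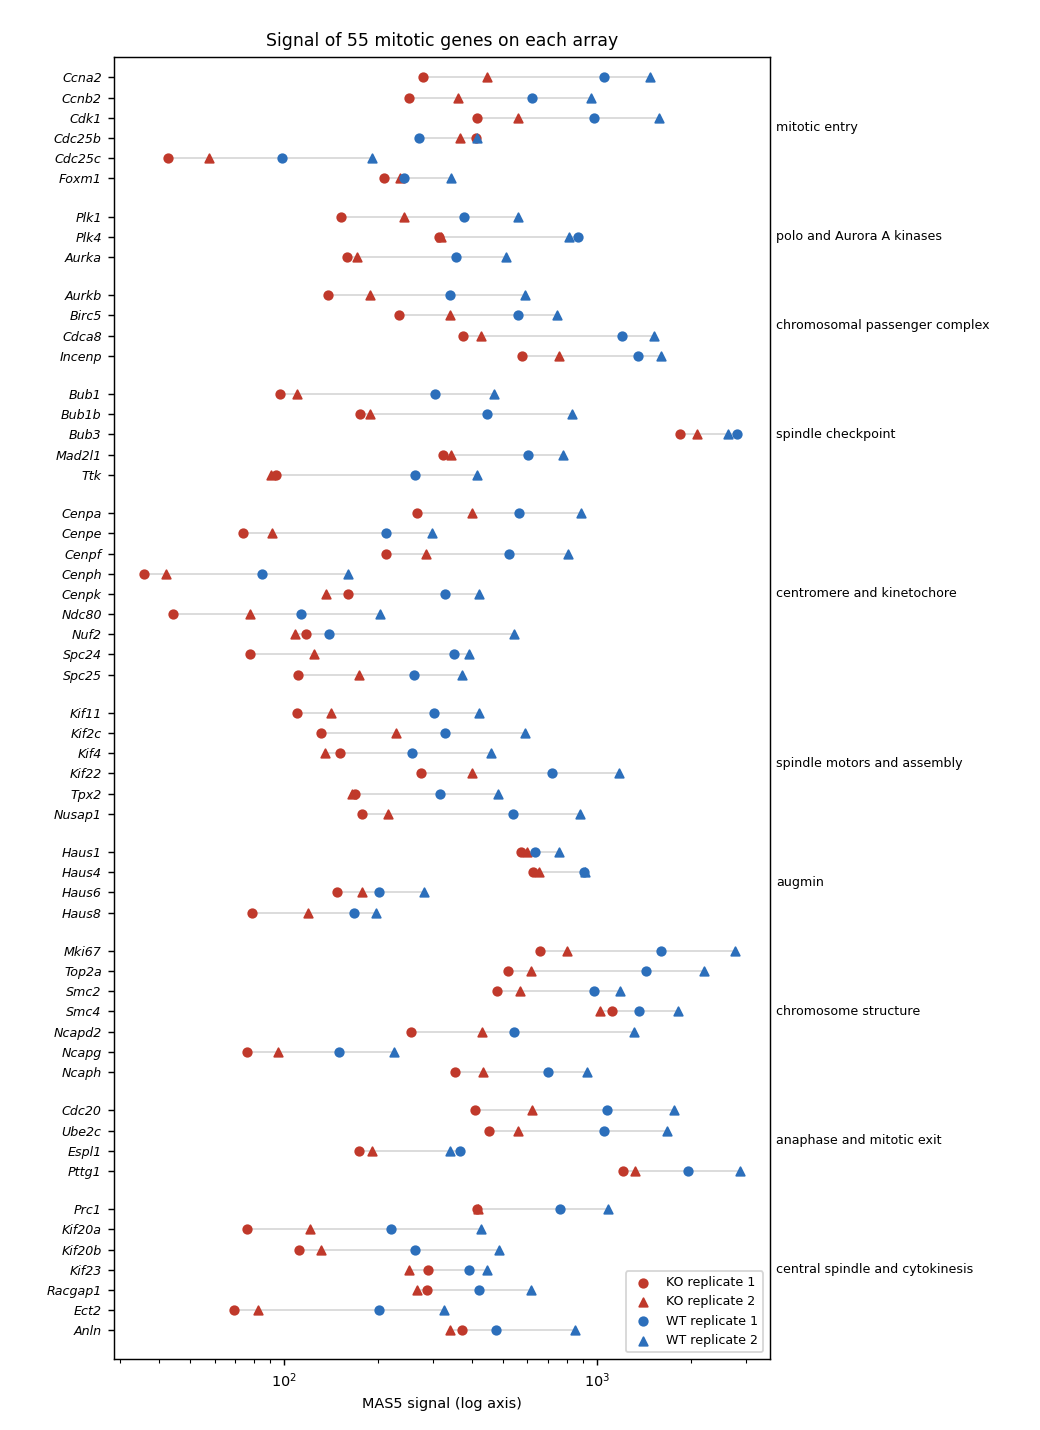
MAS5 signal (horizontal, log axis) of each of the 55 mitotic genes (rows, grouped by role) on KO replicates 1 and 2 and WT replicates 1 and 2. Both KO points lie left of both WT points for 54 genes, and for Cdc25b they overlap.

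Wild-type mice differed from each other in these genes as well. Against its own WT mean, the median mitotic gene stood at -1.38 on KO replicate 1 and -1.10 on KO replicate 2. WT replicate 2 was above WT replicate 1 for 52 of the 55 genes, with a median log2 difference of 0.55, where 51.0% of all genes were higher on WT replicate 2 and their median was 0.01. KO replicate 2 was above KO replicate 1 for 45 of the 55, with a median of 0.23. The signals of the 55 genes summed to 16926 and 19830 on the KO arrays, against 33619 and 47984 on the WT arrays. The lowest WT signal was at least 2 times the highest KO signal for 16 of the 55 genes, and for the median gene this ratio was 1.75. Stat5a and Stat5b were lower on KO replicate 2 than on KO replicate 1, and the mitotic sum was higher on KO replicate 2. The 2 KO arrays also differed in the summed signal of epithelial markers (38714 and 60638) and of muscle markers (14068 and 7950). Whether the Stat5 and mitotic signals are related was not tested.

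**Figure D2:**
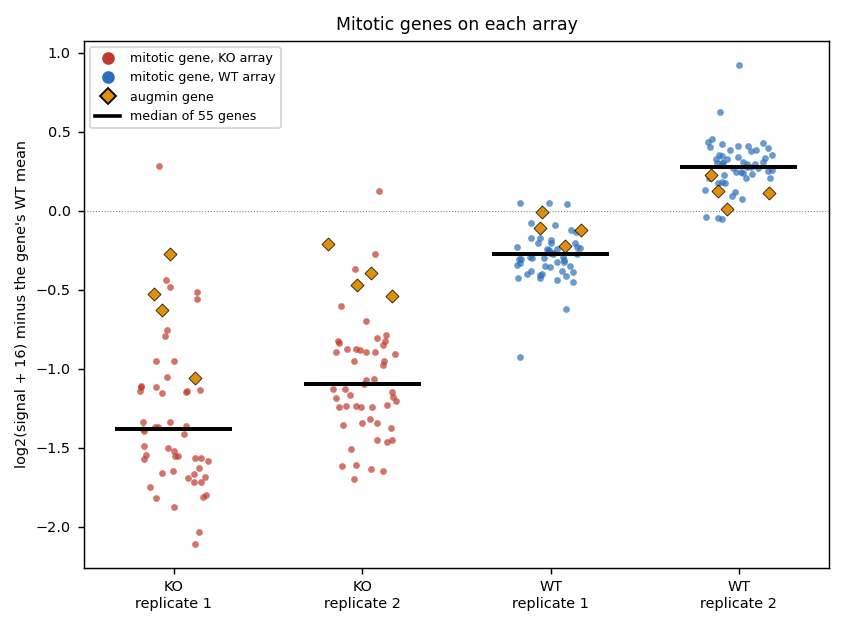
Log2(signal + 16) of the 55 mitotic genes minus each gene's WT mean (vertical) on each array, with the medians as black bars and the 4 augmin genes as diamonds. The medians are -1.38 and -1.10 on the KO arrays, and the WT arrays mirror each other because they define the mean. The 4 augmin genes lie above the median on both KO arrays.

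Promoter sequences are shown because most of these genes are known to share short elements near their start. The CHR element is bound by the MuvB core, which with the DREAM complex silences mitotic genes in resting cells and with B-MYB and FOXM1 activates them before division, and CCAAT boxes are bound by NF-Y. RefSeq windows (GRCm38.p6) from 250 bases before to 50 bases after the start were found for 45 of the 55 genes and searched on both strands for the CHR letters TTTGAA, the CCAAT box letters CCAAT and the STAT letters TTCNNNGAA. The first 2 motifs can share end bases, as they did in 1 mitotic window, and a gene with several windows was counted once if any held a match. Below, each line gives 180 bases from -150 to 30 on the gene's strand, 5′ to 3′, with CHR and CCAAT matches in capitals. The first 4 genes hold both motifs, and Plk4 and Haus6 hold no CHR match.
Cdk1 (chr10:69352883-69353062, minus strand): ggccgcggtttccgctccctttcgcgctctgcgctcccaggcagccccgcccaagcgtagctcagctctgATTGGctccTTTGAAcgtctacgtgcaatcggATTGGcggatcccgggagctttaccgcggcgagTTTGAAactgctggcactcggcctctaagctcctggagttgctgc
Cdca8 (chr4:124936888-124937067, minus strand): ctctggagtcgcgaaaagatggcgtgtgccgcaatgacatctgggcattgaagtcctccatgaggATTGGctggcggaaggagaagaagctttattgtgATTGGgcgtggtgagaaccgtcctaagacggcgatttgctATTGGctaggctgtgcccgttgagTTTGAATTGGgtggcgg
Ttk (chr9:83834539-83834718, plus strand): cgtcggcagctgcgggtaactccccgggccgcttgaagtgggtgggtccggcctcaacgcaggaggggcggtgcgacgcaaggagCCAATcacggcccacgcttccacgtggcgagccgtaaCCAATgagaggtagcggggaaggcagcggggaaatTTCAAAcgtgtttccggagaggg
Top2a (chr11:99024160-99024339, minus strand): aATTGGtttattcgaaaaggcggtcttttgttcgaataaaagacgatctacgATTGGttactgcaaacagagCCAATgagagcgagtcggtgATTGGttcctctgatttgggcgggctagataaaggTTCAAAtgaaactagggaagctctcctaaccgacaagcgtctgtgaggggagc
Plk4 (chr3:40799801-40799980, plus strand): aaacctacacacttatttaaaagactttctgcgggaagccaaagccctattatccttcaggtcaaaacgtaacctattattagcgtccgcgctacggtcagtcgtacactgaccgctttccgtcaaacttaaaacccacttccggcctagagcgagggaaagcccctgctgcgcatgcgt
Haus6 (chr4:86612026-86612205, minus strand): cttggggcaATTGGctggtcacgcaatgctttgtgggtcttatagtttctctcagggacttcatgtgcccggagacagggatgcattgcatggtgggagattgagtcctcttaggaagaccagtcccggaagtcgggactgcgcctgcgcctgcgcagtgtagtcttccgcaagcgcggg

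The CHR letters occurred in 30 of the 45 mitotic windows, or 66.7%, where 20.2% of the 27025 genes with a window held them. In the sequences above, CHR matches begin at -71 and -15 in Cdk1, at 14 in Cdca8, at 8 in Ttk and at -23 in Top2a, counted from the start. Over all mitotic windows 33 of 43 CHR matches lay within 100 bases of the start. Here a site in overlapping windows of a gene, as in Prc1, Ect2 and Bub3, was counted in each window. The same share over all genes was not computed. CCAAT letters were found in 33 of the 45 genes, or 73.3%, where 41.1% of all genes held them, and both motifs were found in 26 genes, or 57.8%, where 7.97% of all genes held both. DNA replication genes held CHR letters in 6 of 28 windows (21.4%) and subunits of the anaphase-promoting complex in 1 of 13 (7.69%). The STAT letters were found in the window of Ncaph alone among the 45, or 2.22%, where 9.55% of all genes held them. A match is a run of letters and not a known site, and the shares were not tested.

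Mitotic genes with and without CHR letters had close medians. The median log2 difference was -1.30 for the 30 mitotic genes with CHR letters and -1.15 for the 15 without, and 11 of the 30 and 6 of the 15 were called lower. For CCAAT letters it was -1.29 for the 33 genes with them and -1.16 for the 12 without, with 14 and 3 called lower. The 19 genes with 2 or more CCAAT matches had a median of -1.35, against -1.06 for the other 26, with 9 and 8 called lower. None of these splits was tested. Plk4, Nusap1 and Mad2l1, which fell, had neither motif in their windows, and none of the 3 augmin genes with a window held CHR letters.

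**Figure D3:**
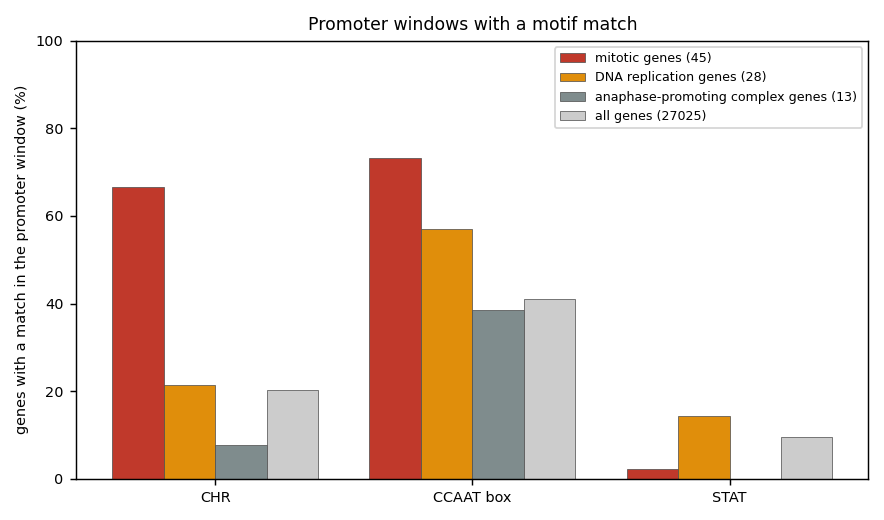
Share of genes (vertical, percent) whose 300-base RefSeq promoter window holds CHR, CCAAT or STAT letters, for mitotic genes, DNA replication genes, anaphase-promoting complex genes and all genes, with the number of genes in brackets. CHR letters were in 66.7% of mitotic windows and 20.2% of all.

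Genes of mitotic entry differed widely among themselves. Ccna2, the cyclin of S phase and early mitosis, gave 278 and 446 on the KO arrays, against 1054 and 1479.9 on the WT arrays, and fell by 1.78 (SE 0.26, limma adjusted p = 0.0331). This was the largest difference of the 55 genes, and its second probe set also fell (-1.53, adjusted p = 0.0489). Cdk1, the kinase that drives mitosis, stood at 414 and 560.1 in KO tissue, against 978 and 1582 in WT tissue (-1.34, adjusted p = 0.0552). Ccnb2, a B-type cyclin that activates it, gave 250.5 and 359 on KO arrays, against 621 and 957 on WT arrays (-1.32, adjusted p = 0.0576). Neither passed, although for both genes the highest KO signal was well below the lowest WT signal.

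The CDC25 phosphatases, which remove inhibitory phosphates from CDK1, did not move alike. Cdc25b gave 411 and 366 on the KO arrays, inside the range of the WT arrays at 271 and 414 (0.20, limma adjusted p = 0.682), and was the one gene of the 55 with a positive difference. Cdc25c, which was not tested, gave 42.5 and 57.5 in KO tissue, against 98.8 and 191 in WT tissue. The forkhead factor Foxm1, which activates many of the genes described here, gave 208 and 235 on KO arrays, against 242 and 342 on WT arrays for its brightest probe set (-0.36, adjusted p = 0.43). Of its other probe sets, a tested one gave -0.62 (adjusted p = 0.188) and an untested one -2.20, both lower on both KO arrays. The last gave 0.10 with no signal above 15.7. The array thus gives no single size of difference for Foxm1.

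Of the polo and Aurora A kinases 2 of 3 fell. Plk4, which starts the duplication of centrioles, gave 312 and 318 on the KO arrays, against 868 and 812 on the WT arrays, a difference of -1.37 (SE 0.15, limma adjusted p = 0.0192). It was one of 3 genes, with Bub3 and Espl1, that were lower on WT replicate 2 than on WT replicate 1. Aurka, which matures centrosomes, stood at 159 and 171 in KO tissue, against 354 and 513 in WT tissue (-1.29, adjusted p = 0.0455). Plk1, which acts from mitotic entry to cytokinesis, gave 152 and 243, against 377 and 561, and did not pass (-1.19, adjusted p = 0.0813).

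The chromosomal passenger complex corrects faulty attachments and later directs cytokinesis, and all 4 of its genes were lower on both KO arrays. Cdca8, which encodes its subunit borealin, had the smallest adjusted p of the 52 tested genes. It gave 373 and 426 on KO arrays, against 1199 and 1526 on WT arrays, so that it fell by 1.72 (SE 0.18, limma adjusted p = 0.0149). Both further probe sets of Cdca8 fell too (-1.52 and -1.62). Incenp, the scaffold of the complex, stood at 576 and 755 in KO tissue, against 1357 and 1605 in WT tissue (-1.14, adjusted p = 0.0384). The other two, Aurkb and Birc5, did not pass. The kinase gene Aurkb gave 138 and 188, against 339 and 589 in WT (-1.38, adjusted p = 0.0635). Birc5, the survivin gene, gave 233 and 340.3, against 559.9 and 748 in WT (-1.15, adjusted p = 0.0614).

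The spindle checkpoint had the most calls for its size, with 4 of 5 genes lower and a median of -1.67. Of these, Bub1 and Ttk entered the test only through their WT signals. Bub1, a kinase that recruits checkpoint proteins to the kinetochore, gave 97.4 and 109.7 on the KO arrays, against 304 and 469 on the WT arrays (-1.72, limma adjusted p = 0.0324), and at 26.8% of the WT mean kept the smallest share of all 55. Bub1b, which encodes the inhibitor BUBR1, stood at 174 and 188 in KO tissue, against 447 and 830.1 in WT tissue (-1.67, adjusted p = 0.0455). Ttk, the kinase MPS1 that starts checkpoint signalling, gave 94.3 and 90.7, against 263 and 413 (-1.67, adjusted p = 0.0353). In all 3 the KO arrays lay close together and the WT arrays apart. Mad2l1, whose product MAD2 binds and holds CDC20, gave 323 and 341 on KO arrays, against 602 and 781 on WT arrays (-1.01, adjusted p = 0.0494). Bub3, which works with BUB1 and BUBR1, gave 1837 and 2093 on KO arrays, against 2793 and 2633 on WT arrays, kept 72.4% of its WT level and did not pass (-0.46, adjusted p = 0.125).

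All 9 centromere and kinetochore genes were lower on both KO arrays, with differences between -1.74 and -1.08, and 3 of the 7 tested fell. Of these 3, Spc24 and Cenpe entered the test only through their WT signals. Spc24, a subunit of the NDC80 complex that grips microtubules, gave 78.1 and 125 on the KO arrays, against 349 and 389 on the WT arrays, so that it fell by 1.74 (SE 0.25, limma adjusted p = 0.0322). Its 3 partners did not follow as calls. Spc25 gave 111 and 173, against 260.0 and 372 in WT (-1.08, adjusted p = 0.0973), and the untested Ndc80 gave 44.1 and 77.6, against 114 and 203 in WT. Nuf2 gave 117 and 109 in KO tissue, against 139.7 and 544 in WT tissue (-1.20 with an SE of 0.54, adjusted p = 0.281). Nuf2 rests on WT replicate 2, since WT replicate 1 was close to the KO arrays and its difference was -0.27 without WT replicate 2 and -2.12 without WT replicate 1.

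Among the other kinetochore genes, Cenpe, a motor that carries chromosomes to the spindle equator, gave 74.2 and 91.5 on KO arrays, against 212 and 298 on WT arrays (-1.44, limma adjusted p = 0.0447). Cenpk, of the inner kinetochore, gave 160.1 and 136, against 326 and 420.0 (-1.24, adjusted p = 0.0435). The large outer protein gene Cenpf gave 212 and 285, against 523 and 806 in WT, and missed the threshold (-1.35, adjusted p = 0.0524). Cenpa, the histone H3 variant that marks centromeres, stood at 266 and 399, against 563 and 892 in WT (-1.08, adjusted p = 0.0976). Cenph, a partner of CENP-K, was dim at 35.8 and 41.9, against 85.0 and 161 in WT, and was not tested.

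Spindle motors and assembly factors were lower on both KO arrays in 6 of 6 cases, and 2 fell. Of these, Kif11 entered the test only through its WT signals, with a KO mean just under the limit. Nusap1, which bundles microtubules near chromatin, gave 177 and 216 on the KO arrays, against 539 and 882 on the WT arrays (-1.74, limma adjusted p = 0.0331). Kif11, the motor that pushes spindle poles apart, stood at 109.7 and 142 in KO tissue, against 302 and 419.9 in WT tissue (-1.40, adjusted p = 0.0437), while its other 2 probe sets did not pass (-1.34 and -0.83). The remaining 4 had KO levels between 35.4% and 41.7% of WT. Kif22, a chromosome arm motor, gave 274 and 398, against 719 and 1178 in WT (-1.44, adjusted p = 0.0553). Tpx2, which activates Aurora A on the spindle, gave 168 and 165, against 315 and 483 in WT (-1.15, adjusted p = 0.0614). Its WT arrays differed from each other more than its KO arrays did. The motor of chromatin Kif4 gave 151 and 136, against 257 and 457 in WT (-1.18, adjusted p = 0.086). Kif2c, which depolymerises microtubules at kinetochores, gave 131 and 228, against 327 and 588 in WT (-1.26, adjusted p = 0.11).

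Augmin, the complex that nucleates new microtubules on the sides of existing ones, differed least of the roles, with a median of -0.51 and 0 of 4 genes called by limma (2 at an unadjusted p under 0.05). Over all genes, 2418 of the 11360 tested had such a p. Haus4 gave 627 and 654 on the KO arrays, against 906 and 917 on the WT arrays (-0.50, limma adjusted p = 0.12). Haus1 gave 570.2 and 596 in KO tissue, against 633 and 755 in WT tissue, the smallest negative difference of the 55 genes (-0.24, adjusted p = 0.463). Haus6 gave 148 and 177, against 201 and 281 in WT (-0.51, adjusted p = 0.283). Haus8 had the most negative difference of the 4, at 78.9 and 119.8, against 167 and 197 in WT (-0.80, adjusted p = 0.156). The order of KO below WT held for all 4, and whether augmin differs less than the other roles was not tested.

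Genes of chromosome structure were lower on both KO arrays in 7 of 7 cases, and 3 fell. Top2a, the topoisomerase that untangles sister chromatids, gave 518 and 614 on the KO arrays, against 1439.7 and 2192 on the WT arrays (-1.63, limma adjusted p = 0.0308). Mki67, whose protein coats mitotic chromosomes and serves as a proliferation marker, stood at 656 and 802 in KO tissue, against 1606 and 2756 in WT tissue (-1.52, adjusted p = 0.0446). In both genes the WT mice stood far apart and still did not overlap the KO mice. Of the condensins, which compact chromosomes, the core subunit gene Smc2 gave 481 and 568, against 982 and 1184 in WT (-1.02, adjusted p = 0.0425).

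The other core subunit, Smc4, gave 1116 and 1026 on KO arrays, against 1358 and 1811 on WT arrays for the brightest probe set, which did not pass (-0.55, limma adjusted p = 0.156). Both other Smc4 probe sets fell (-0.97 and -1.26), so the probe set rule decides the Smc4 call. Ncaph, of condensin I, gave 353 and 432, against 696 and 932 in WT (-1.02, adjusted p = 0.057), and its dimmer probe set fell (-1.39, adjusted p = 0.0425). Ncapd2 gave 255 and 429 in KO tissue, against 542 and 1309 in WT tissue, with WT replicate 2 far above WT replicate 1 (-1.31, adjusted p = 0.155). Ncapg gave 76.3 and 95.8, against 149.6 and 225 in WT (-0.98, adjusted p = 0.11).

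At anaphase and mitotic exit 1 of 4 genes fell. Ube2c, the ubiquitin-conjugating enzyme of the anaphase-promoting complex, gave 452 and 558 on the KO arrays, against 1053 and 1677 on the WT arrays (-1.38, limma adjusted p = 0.0472). Cdc20, the activator that the checkpoint restrains, stood at 408 and 622 in KO tissue, against 1076 and 1769 in WT tissue (-1.42, adjusted p = 0.059). The protease that opens cohesin and its inhibitor were both at about the same share of WT. Espl1, the separase gene, gave 174 and 191, against 364 and 338 in WT (52% of WT, adjusted p = 0.0606). Pttg1, the securin gene, gave 1215 and 1326, against 1954 and 2861 in WT (52.8% of WT, adjusted p = 0.0706).

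In the central spindle and cytokinesis group 2 of 7 genes fell. Of these, Ect2 entered the test only through its WT signals. Ect2, which activates RhoA at the division site, gave 69.0 and 82.9 on the KO arrays, against 202 and 326 on the WT arrays (-1.57, limma adjusted p = 0.0472). Prc1, which crosslinks midzone microtubules, stood at 412 and 418 in KO tissue, against 765 and 1088 in WT tissue (-1.11, adjusted p = 0.0489). The midzone motors Kif20a and Kif20b had differences between those of Ect2 and Prc1 with wider errors. Kif20a gave 76.1 and 121, against 221 and 427 in WT (-1.53 with an SE of 0.35, adjusted p = 0.0765). Kif20b gave 112 and 131, against 261 and 487 in WT (-1.44 with an SE of 0.30, adjusted p = 0.0628).

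Kif23 and Racgap1, the partners of the centralspindlin complex, had smaller differences. Kif23 gave 288 and 251 on KO arrays, against 391 and 446 on WT arrays (-0.61, limma adjusted p = 0.13). Racgap1 gave 287 and 267, against 420.2 and 616 in WT (-0.84, adjusted p = 0.0987), with -1.51 for a dimmer probe set that did not pass either. Anln, the anillin of the contractile ring, stood at 370.1 and 339.8 in KO tissue, against 475 and 852 in WT tissue (-0.82, adjusted p = 0.17). In all 3 the KO arrays did not reach the lower WT array.

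**Figure D4:**
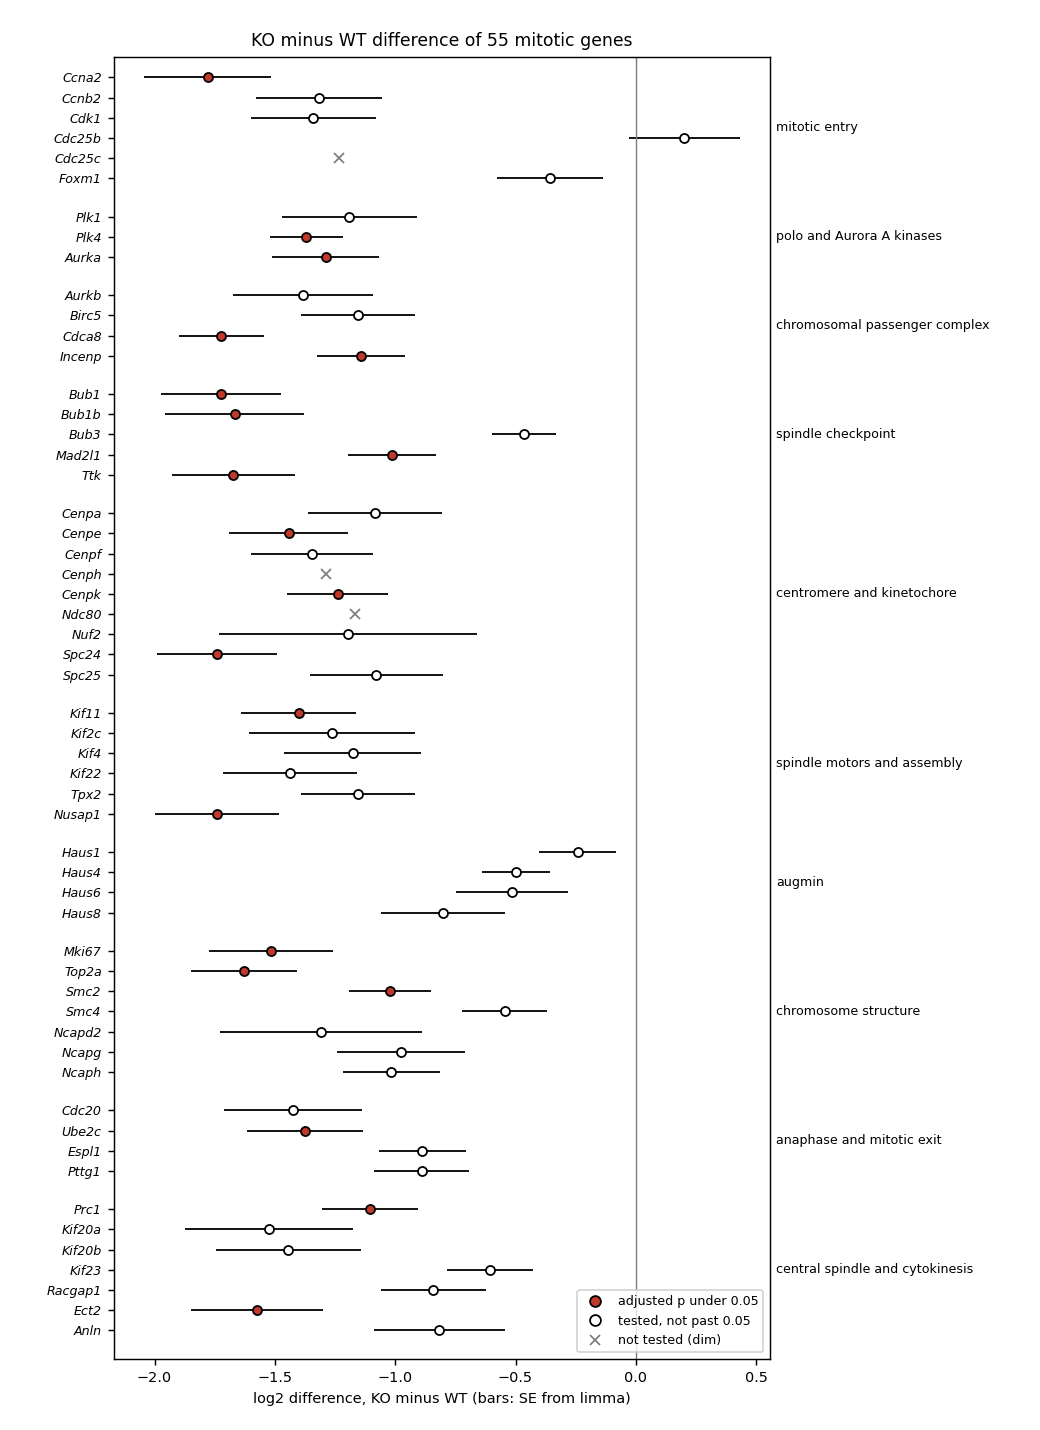
Log2 difference, KO minus WT, of the 55 mitotic genes (rows, by role), with the SE from limma as bars. Filled points are the 20 genes that fell at an adjusted p under 0.05, open points the 32 tested genes that did not pass, and crosses the 3 genes too dim to test.

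The dimmer probe sets mostly ran the same way. Of 67 further probe sets of 36 genes, 47 had both KO arrays below both WT arrays, 18 overlapped and 2 were higher. The 2 that were higher belong to Bub3 and Racgap1 and were dim. Among all genes, each by its brightest probe set, 24.8% had both KO arrays below both WT arrays. Of the 24 further probe sets bright enough to be tested, 9 were called lower, against 235 of all 22519 tested probe sets. The further probe sets measure the same genes in the same RNA, so they are not independent observations. Besides Kif11, 3 called genes had a further tested probe set that did not pass. These were Top2a (-0.58, limma adjusted p = 0.258), Prc1 (-0.95, adjusted p = 0.143) and Incenp (-1.08, adjusted p = 0.0546). Another probe set of Incenp fell (-1.11). When all probe sets of a gene were averaged, the median of the 55 genes was -1.08 and 8 of the 28 then tested were called lower, of which 5 were among the 20.

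Further genes of cell division were taken from lists set by function, also with earlier results of these data known. Of 29 further kinetochore, centromere and checkpoint genes, 3 of 22 tested fell and 0 rose, with a median of -0.68 over all 29, of which 22 were lower on both KO arrays. They were Cenpp (-1.66, limma adjusted p = 0.0295), Cenpm (-1.34) and Cenpu (-1.14), all of the inner kinetochore. Of 35 further spindle, centrosome and cytokinesis genes, 2 of 27 tested fell, namely the mitotic kinase gene Melk (-2.09, adjusted p = 0.0236) and the minus-end motor gene Kifc1 (-1.51, adjusted p = 0.0322), with a median of -0.63. For subunits and partners of the anaphase-promoting complex, which resting cells also use, limma called 0 of 14 (2 at an unadjusted p under 0.05) and the median was -0.18, with the largest differences at -0.39 for Ube2s and -0.39 for Cdc16. Over all genes, 2418 of the 11360 tested had an unadjusted p under 0.05. Among 15 cohesin and condensin II genes 1 of 14 tested fell, Cdca5, the sororin gene that protects cohesion (-1.77, adjusted p = 0.0308), with a median of -0.17.

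Upstream of mitosis, 11 of 33 tested DNA replication genes fell, with a median of -0.94 over 34, of which 32 were lower on both KO arrays. The helicase subunit genes Mcm6 and Mcm5 were lowest in p (-1.71 and -1.64, limma adjusted p = 0.0184 and 0.0236), followed by the thymidine kinase gene Tk1 (-1.50). Of 17 tested transcription factors of the cell cycle 3 fell, all of the E2F family that controls S phase genes. E2f2 gave 52.8 and 62.1 on KO arrays, against 339 and 200.2 on WT arrays (-1.92, adjusted p = 0.0352), while E2f8 and E2f1 fell by 1.99 and 0.99. E2f2 entered the test only through its WT signals. Of 7 tested G1 cyclins and CDKs limma called 0 (4 at an unadjusted p under 0.05), with a median of -0.48 over 8, and Ccnd1, the cyclin D1 gene, was at 1885 and 2834 in KO tissue, against 3961 and 5337 in WT tissue (adjusted p = 0.0792). Ccne2 was not tested and stood at -0.99. Inhibitors of CDKs and quiescence genes had a median of 0.03, and limma called 0 of 10 (2 at an unadjusted p under 0.05), with -0.64 for Cdkn1a and -0.57 for Cdkn1c. These unadjusted counts stand beside 2418 of the 11360 tested genes over the whole array. The differences between these lists and the mitotic genes were not tested.

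**Figure D5:**
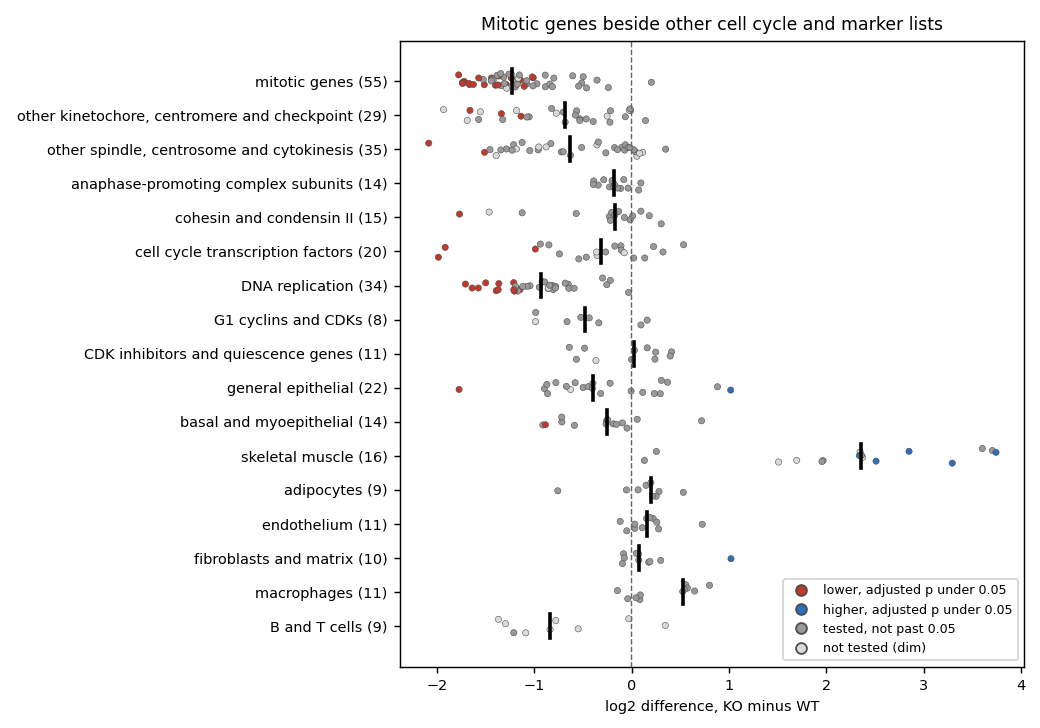
Log2 difference, KO minus WT (horizontal), of the mitotic genes and of genes in other lists (rows, with the number of genes), each point a gene coloured by its call and each black bar a list's median. The dashed line is the median of all genes, -0.01, and the mitotic median is -1.23.

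Cell type markers moved between the genotypes too. General epithelial markers had a median of -0.40 with 1 of 21 tested genes lower and 1 higher, and their summed signal was 38714 and 60638 on the KO arrays, against 55015 and 57655 on the WT arrays. KO replicate 2 thus lay above both WT arrays in the epithelial sum, but its markers did not move alike. Krt7, Krt8, Krt18 and Krt19 were above both WT arrays on it, whereas Epcam was below both (6330, against 9145 and 8659). Of the 22 markers, 11 were lower on both KO arrays, 4 were higher on both and 7 overlapped, where 24.8% of all genes were lower on both. Per 100 units of the epithelial sum, to which keratins and Epcam add most, the mitotic sum was 43.7 and 32.7 on the KO arrays, against 61.1 and 83.2 on the WT arrays. When each array was centred on the epithelial markers, the mitotic median was -0.95, 44 of 55 genes were lower on both KO arrays and 8 were called lower. With this centring the median of all genes was 0.27, and 0.625% of the 11360 tested genes were called lower. The share of all genes lower on both KO arrays was not computed for it.

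Other markers were less abundant or moved the other way. Skeletal muscle markers summed to 14068 and 7950 on KO arrays, against 3843 and 1900 on WT arrays, and 5 of 12 tested were called higher. Markers of B and T cells, which also divide, were mostly dim, with 8 of 9 not tested, and summed to 460.3 and 784 on KO arrays, against 835 and 1372 on WT arrays. Macrophage markers had a median of 0.52, adipocyte markers of 0.20, endothelial markers of 0.15, fibroblast and matrix markers of 0.07, and basal and myoepithelial markers of -0.25. The part of cell composition in the mitotic difference was not tested beyond the epithelial centring.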

How the data were processed

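Mammary RNA of 2 STAT5 KO and 2 STAT5 WT mice was hybridised to 4 Affymetrix arrays after TRIzol extraction and biotin labelling, per the labels. The deposited intensity values are linear MAS5 signals of probe sets, with MAS5 named in the submitters' processing notes and its version and settings not given in the sources used here. The values show a scaling to 500, which was each column's mean once the 2% of probe sets at either end were trimmed. The number of arrays limits the precision, and detection calls were not used.

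Of 45101 probe sets 64 controls were left out. Of the other 45037, 34945 had 1 gene symbol in the platform annotation, which can be old, 932 had several and 9160 are unnamed here. Entrez identifiers were found in RefSeq for 34741, and 0 symbols changed. Signals were taken as log2(signal + 16), which understates changes of dim genes. The 22519 probe sets with a mean of at least 7.15 on this scale (a signal of 126) were fitted with limma 3.58.1 in R 4.3.3 (lmFit, eBayes with trend, Benjamini-Hochberg adjustment over all of them). The fit leaves 2 residual degrees of freedom per probe set. With 2 arrays per genotype the smallest two-sided p of an exact permutation test is 0.333, and no such test was run. The limma step was tested on simulated data.

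The mitotic genes and the other lists were chosen with earlier results of these data known. Every mitotic gene could be named. From the other lists up to 3 called genes with the smallest p were named, or up to 2 with the largest difference where none was called. The settings varied were the pseudocount (1 or 64), quantile normalization, centring on array medians or epithelial markers, no filter or one at the 75th percentile, no trend, averaged probe sets, and leaving out each array. Genes with dim probe sets were kept in medians and orders but not tested.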

Additional observations from a re-analysis of the deposited data

How the results depend on the processing

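The 55 mitotic genes had a negative median in all 13 alternatives, but the number called depended on most settings. Against 20 genes called lower, 12 were called with quantile normalization, 11 with array medians as the centre, 8 with epithelial markers as the centre, 0 with no filter, 5 with the 75th percentile filter (15 genes tested), 7 without a trend and 8 with averaged probe sets (28 genes tested). Leaving out 1 array gave between 0 and 34. Calls higher in KO stayed at 0 in every setting. The median of -1.23 moved to -0.95 with the epithelial centre, and lay between -1.55 and -0.91 with an array left out. Genes lower on both KO arrays numbered 44 to 54 with all 4 arrays. With an array left out, 54 or 55 had KO below WT. That ordering is easier to meet, since 1 genotype then has a single array. Calls over all genes were 292, against 27 with no filter, 127 with the 75th percentile filter, 137 without a trend, 178 with averaged probe sets and 44 to 599 with an array left out. Centring on epithelial markers moved the median of all genes to 0.27, and 67.7% of calls were then higher in KO, against 47.3% in the values as deposited and 61.7% with array medians. Among tested mitotic genes, Haus1 (0.039 with the epithelial centre) and Cdc25b (-0.090 to 0.49 with an array left out) changed sign, and no others. Of the 20 called genes, Cdca8 was called in 12 of 14 settings, the main one included, and Top2a in 11. At the other end, Aurka, Mad2l1, Prc1 and Ect2 were called in 4 of the 14. The cause of these changes was not tested, except that the filters change how many probe sets are tested and leaving out an array leaves 1 residual degree of freedom per probe set.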
